A study of Mus musculus with 24 samples.

Results

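Perineuronal nets are lattices of extracellular matrix that wrap the cell body and proximal dendrites of certain neurons, in the cortex above all the parvalbumin-positive interneurons. Their backbone is hyaluronan, a sugar polymer made at the cell surface. The lecticans, a family of chondroitin sulfate proteoglycans, bind hyaluronan at one end, link proteins of the Hapln family hold that bond, and tenascin-R ties the other ends of the lecticans together. Neurons, astrocytes and oligodendrocyte precursors all contribute to this matrix, and the same molecules also form the looser matrix around other cells.

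The 9 genes described here were chosen by name as genes of the nets and their proteoglycans and are 9 of the 33000 genes in the count table. They are the lecticans Acan, Bcan, Ncan and Vcan, the link proteins Hapln1 and Hapln4, the tenascin Tnr, and the transmembrane proteoglycans Cspg5 and Ptprz1. The remaining link proteins, Hapln2 and Hapln3, are given beside them. RNA came from the dissected frontal cortex of 3 wild-type (WT) mice and 3 homozygous GFAP-IL6 mice, all C57BL/6 and 3 months old, with no treatment named in either group. GFAP-IL6 mice carry a transgene in which the Gfap promoter drives expression of the cytokine Il6 in astrocytes, so Il6 is raised within the brain from cells that are themselves a source of matrix. Each mouse gave 4 libraries by 3'Pool-seq, which sequences the polyadenylated 3' end of each transcript, 1 for each combination of cDNA amount in tagmentation (2 ng or 1 ng) and set (A or B). The labels do not say what separates the sets. Since 1 RNA sample per mouse went into all 4 libraries, mice and not libraries were the replicates.

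Counts per mouse, over its 4 libraries, ranged from 7852743 in WT 3 to 37582644 in GFAP-IL6 3, and single libraries held 1524165 to 12256374. Levels are in CPM, counts scaled to 1000000 per mouse or library after TMM normalisation of the totals. Il6 itself had 0 to 5 counts in the WT mice and 30 to 163 in the GFAP-IL6 mice, in the direction of the labels. Markers of cortical neurons, parvalbumin interneurons, astrocytes, microglia and both oligodendrocyte lineage stages were present in every mouse. WT 3 stood apart from the others, with choroid plexus markers (5 genes, 5 above 0) at a summed 4085 CPM against 82.1 to 756 in the other 5 mice. WT 2 stood apart on striatal medium spiny neuron markers (8 genes, 7 above 0), at a summed 476 CPM against 268 to 335 in the other 5. In bulk tissue, fewer cells of a type and less RNA per cell cannot be told apart.

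The assay reads the transcript's end, so the ends of the annotated transcripts are shown first, for the members in which the last 30 bases hold the polyadenylation hexamer AATAAA. They are the last 30 bases of the longest protein-coding transcript of each gene in GENCODE vM21, on mm10, written in the sense of the gene with the hexamer in capitals.
Acan: tataatAATAAAgacattggaagagatcta
Bcan: aggtggaAATAAAgttgtctgaacccaaag
Ncan: ggacattttAATAAAaattttttaacagtt
Tnr: ctatacgttAATAAAagatcctgaaggaaa
Cspg5: aaaaaaaaagttcttgaAATAAAacttttt
Ptprz1: tgcaaaAATAAAtataaatattgctattaa
These stretches lie at chr7:79115070-79115099 on the plus strand (Acan), chr3:87987531-87987560 on the minus strand (Bcan), chr8:70093085-70093114 on the minus strand (Ncan), chr1:159931700-159931729 on the plus strand (Tnr), chr9:110262534-110262563 on the plus strand (Cspg5) and chr6:23052887-23052916 on the plus strand (Ptprz1), each within the last exon. In a window of 50 bases, searched on the transcript strand only, 7 of the 9 members (77.8%) held AATAAA, with Hapln1 added to those shown, against 59.2% of 21877 genes with a protein-coding transcript. The annotated ends of Vcan and Hapln4 lacked these letters in that window. A transcript can end elsewhere than its annotation, and the table gives 1 count per gene, so which end or isoform the reads came from was not seen. The counts were made on GENCODE vM6, where gene models can differ. The deposited lengths of Hapln1 (5055 bases), Hapln4 (3576) and Hapln3 (1433) were shorter than their longest vM21 protein-coding transcripts (5715, 3648 and 3358 bases). Brevican, versican and Ptprz1 each exist as membrane-bound or shortened and full-length forms, which these counts cannot separate.

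Each lectican gene lies beside a link protein gene, with 0 annotated genes between them in all 4 pairs. Acan (chr7:79053483-79115099) and Hapln3 (chr7:79115102-79131018) face each other tail to tail with only 2 bases between them. Ncan (chr8:70093085-70120873) and Hapln4 (chr8:70083457-70090862) are also tail to tail, 2222 bases apart. Vcan (chr13:89655312-89742509) and Hapln1 (chr13:89539796-89611652) are tail to tail at 43659 bases, and Bcan (chr3:87987531-88000230) and Hapln2 (chr3:88021750-88027583) lie on the same strand 21519 bases apart. Tnr (chr1:159523769-159931729), Cspg5 (chr9:110243783-110262576) and Ptprz1 (chr6:22875502-23052916) have no such partner. Tnr overlaps 3 further annotated records, Vcan 2, and Hapln1, Ncan and Cspg5 1 each, and whether the counting used strand is not given in the sources used here, so reads in those overlaps are uncertain.

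The members spanned a wide range of levels in WT cortex. Cspg5, which encodes neuroglycan C, was highest at 179 ± 11.4 CPM (SD, n = 3 mice, as for all WT and GFAP-IL6 means here), and 93.1% of the 14621 genes tested between genotypes were lower. Brevican followed with Bcan at 149.7 ± 9.0 CPM, then the link protein gene Hapln4 at 96.1 ± 8.53, neurocan (Ncan) at 55.7 ± 3.97, Ptprz1 at 45.7 ± 4.50 and Tnr at 33.0 ± 9.42 CPM. Hapln1 stood at 12.7 ± 0.675 CPM and Vcan at 3.92 ± 0.743. Acan, the core proteoglycan by which nets are often stained, was lowest, with 32 counts in all 24 libraries together.

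Neighbours in this order did not overlap in the 3 WT mice except Ptprz1 and Tnr, where WT 3 had more Tnr (43.8 CPM) than Ptprz1 (41.6 CPM). The closest pair that did stay apart was Ncan and Ptprz1, with the lowest WT mouse for Ncan at 52.8 CPM and the highest for Ptprz1 at 50.5 CPM. All 3 GFAP-IL6 mice kept the full order. A 3' method counts each transcript about once, and the study's authors applied no length scaling to it. Divided by the deposited gene length, the first 3 members changed places, with Bcan first (47.7 CPM per kilobase), Hapln4 next (26.9) and Cspg5 after it (18.2), and the other 6 kept their ranks.

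**Figure D1:**
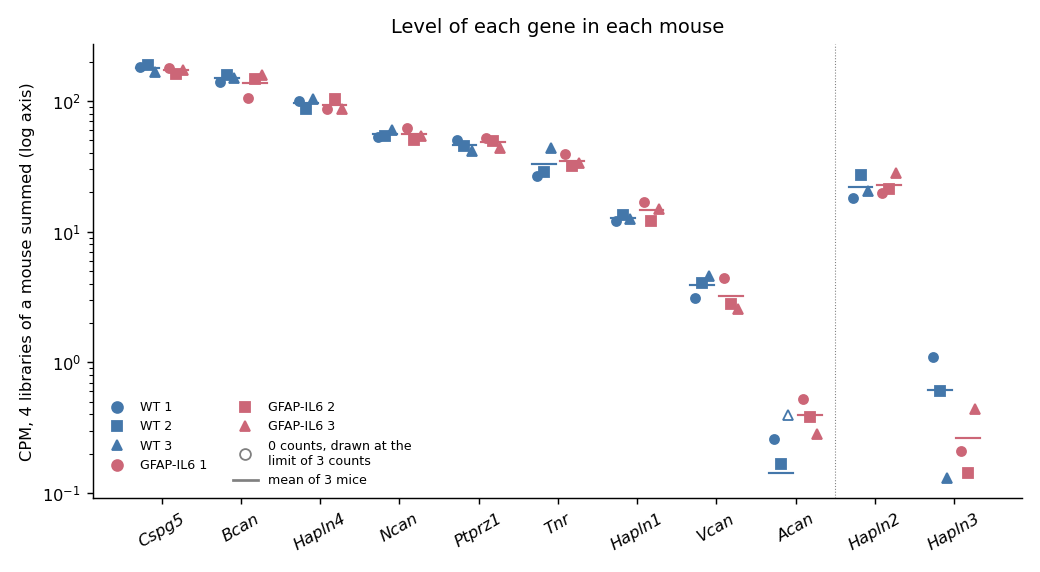
CPM of the 9 members in order of their WT mean, and of Hapln2 and Hapln3, with 1 point per mouse on a log axis, WT in blue and GFAP-IL6 in red, and short bars at the mean of 3 mice. The open triangle is WT 3 for Acan, with 0 counts, drawn at the level of 3 counts (0.393 CPM). The members run from 179 CPM for Cspg5 to under 1 CPM for Acan in WT, and blue and red points intermix for each of the 8 tested members.

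The comparison of GFAP-IL6 with WT asks whether chronic Il6 from astrocytes goes with another level of matrix transcripts in the cortex. None of the 8 members that passed the filter on low counts was called at an adjusted p under 0.05 (edgeR's quasi-likelihood test, Benjamini-Hochberg over all 14621 genes), where 1.8% of all genes tested were called. At an unadjusted p under 0.05 the count was also 0 of 8, where 8.75% of all genes tested were past it, and DESeq2 and limma called 0 as well. With an absolute log2 fold change above 1 required in addition, 1.23% of genes were called and again 0 members. The median log2 fold change of the 8 was -0.028, with 3 positive, beside -0.0069 over all genes tested. The CPM of the 3 GFAP-IL6 and 3 WT mice overlapped for all 8, while 14.4% of genes tested had groups that did not overlap.

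Leaving out either WT mouse that stood apart called 0 members, where 246 of 15050 genes were called without WT 3 and 182 of 14988 without WT 2. Without WT 3 the log2 fold change was 0.33 for Tnr (edgeR, unadjusted p = 0.0114, adjusted p = 0.297). It was 0.18 for Hapln1, 0.049 for Ncan, 0.0085 for Ptprz1, 0.0024 for Hapln4, -0.11 for Cspg5, -0.12 for Bcan and -0.21 for Vcan. Without WT 2 it was 0.0062 for Tnr, -0.12 for Hapln4 and -0.028 for Cspg5. The part of either marker signal in these values was not tested.

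Among the lecticans, Bcan had 140.4, 158 and 150.4 CPM in WT mice 1 to 3 and 106, 146 and 157 CPM in GFAP-IL6 mice 1 to 3. The difference rested on GFAP-IL6 1, which had the lowest Bcan of the 6 mice in each of the 4 sets of libraries, at 97.9 to 124 CPM where the next lowest mouse had 127 to 156. The log2 fold change of Bcan was -0.13 (SE 0.12, adjusted p = 0.859), and it was 0.017 without GFAP-IL6 1 (adjusted p = 0.978).

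Ncan had 52.8, 54.0 and 60.2 CPM in WT and 61.8, 50.4 and 54.1 CPM in GFAP-IL6 mice. Its means, 55.7 ± 3.97 and 55.4 ± 5.78, were the closest of any member, with a log2 fold change of -0.0071 (SE 0.10, adjusted p = 0.996) and a 95% interval from 0.858-fold to 1.15-fold. The sign of so small a difference changed with the mice left out.

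Vcan, made largely by oligodendrocyte precursors and by cells of vessels and meninges, had 3.12, 4.04 and 4.59 CPM in WT and 4.43, 2.78 and 2.54 CPM in GFAP-IL6 mice. GFAP-IL6 1 lay among the WT mice and the other 2 GFAP-IL6 mice below all of them. With 5 to 29 counts per library the interval was wide, from 0.538-fold to 1.21-fold around a log2 fold change of -0.31 (SE 0.28, adjusted p = 0.849), so both no change and a fall to near 0.538-fold lie inside it. Summed oligodendrocyte precursor markers were 151 to 204 CPM in WT and 144 to 213 CPM in GFAP-IL6 mice, and fibroblast and meningeal markers 36.6 to 65.9 and 41.0 to 62.5 CPM.

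Acan did not pass the filter on low counts. Without that filter edgeR did not call it (log2 fold change 1.14, SE 0.94, adjusted p = 0.841). Neither did DESeq2 (log2 fold change 1.26, SE 1.09). It had 5, 3 and 0 counts in WT mice 1 to 3, which is 0.260, 0.166 and 0 CPM, and 5, 8 and 11 counts in GFAP-IL6 mice, which is 0.527, 0.383 and 0.285 CPM. The groups did not overlap, where 14.4% of genes tested had such groups. The exact two-sided permutation p of 0.1 is the smallest that 3 mice against 3 can give. In set A single libraries held 0 to 2 counts in WT and 2 to 4 in GFAP-IL6 mice. In set B they held 0 to 2 counts in both groups. The 95% exact Poisson interval of the 0 counts in WT 3 reached 0.484 CPM. That of all WT counts together was 0.0769 to 0.351 CPM, overlapping the 0.223 to 0.518 CPM of all GFAP-IL6 counts. Such an overlap is not a test of a difference between mice. These intervals cover counting error only, since reads without molecular identifiers are not independent molecules. In single libraries Acan had 3 or fewer counts in 23 of 24 and 0 in 9.

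Of the link proteins, Hapln1 had 12.2, 13.5 and 12.5 CPM in WT and 16.9, 12.1 and 14.8 CPM in GFAP-IL6 mice. GFAP-IL6 mice 1 and 3 were above every WT mouse and GFAP-IL6 2 was below every one. Its log2 fold change of 0.19 (SE 0.14) had an adjusted p of 0.817, the smallest of the members, and a 95% interval from 0.919-fold to 1.41-fold. Hapln4, the link protein of perisomatic and axonal matrix, had 99.0, 86.4 and 102.7 CPM in WT and 87.2, 103 and 87.3 CPM in GFAP-IL6 mice, a log2 fold change of -0.049 (SE 0.098, adjusted p = 0.948). Both groups of mice covered nearly the same span.

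Of the other link proteins only Hapln2 was tested, and it was not called. Hapln2, found at nodes of Ranvier, had 18.3, 26.9 and 20.5 CPM in WT and 19.6, 21.1 and 27.9 CPM in GFAP-IL6 mice, a log2 fold change of 0.080 (SE 0.16, adjusted p = 0.948). Hapln3 did not pass the filter, with 33 counts in the WT mice together and 22 in the GFAP-IL6 mice.

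Tnr, the tenascin that cross-links lecticans, had 26.6, 28.6 and 43.8 CPM in WT and 39.2, 32.0 and 33.4 CPM in GFAP-IL6 mice. The highest of the 6 values was in WT 3, the mouse with the high choroid plexus markers, and the spread between WT mice (coefficient of variation 28.6%) was the widest of the tested members in WT. The log2 fold change of Tnr was 0.10 (SE 0.16, adjusted p = 0.926) with all mice and 0.33 without WT 3 (adjusted p = 0.297), when all 3 GFAP-IL6 mice were above the 2 WT mice left. The part of the choroid plexus signal in the Tnr value of WT 3 was not tested.

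Of the transmembrane proteoglycans, Cspg5 had 181, 189.5 and 167 CPM in WT and 179, 159.8 and 174 CPM in GFAP-IL6 mice. Its log2 fold change of -0.069 (SE 0.085, adjusted p = 0.904) carried the narrowest interval of the members, from 0.841-fold to 1.08-fold. Ptprz1, a receptor phosphatase whose secreted form is phosphacan, had 50.5, 45.0 and 41.6 CPM in WT and 51.7, 49.3 and 43.5 CPM in GFAP-IL6 mice, a log2 fold change of 0.063 (SE 0.10, adjusted p = 0.935). The groups of both genes overlapped.

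**Figure D2:**
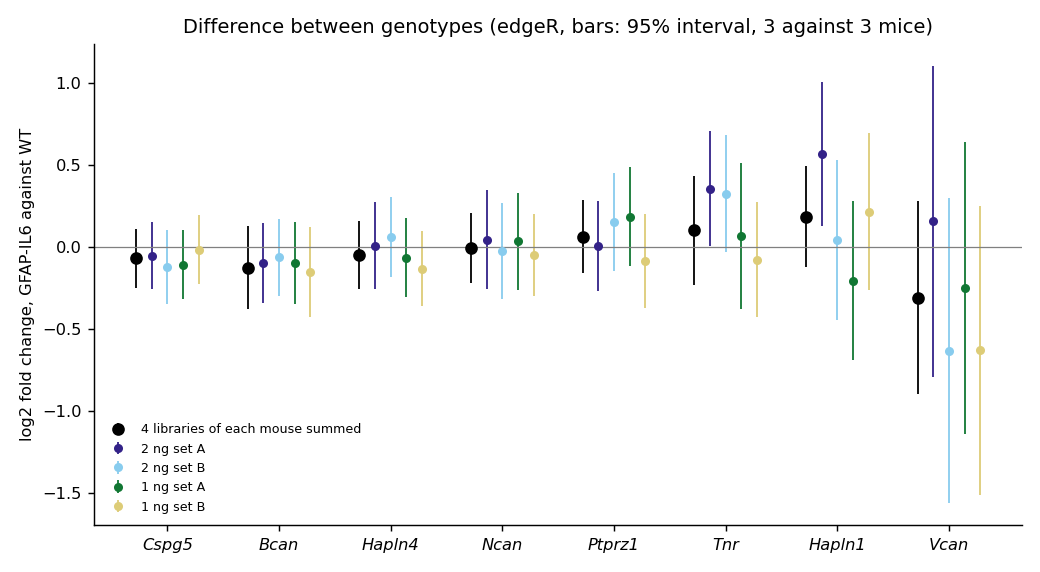
Log2 fold change of the 8 tested members, GFAP-IL6 against WT, from edgeR, with the 4 libraries of each mouse summed (black) and in each set of 6 libraries (colours), bars being 95% intervals. All 8 black intervals include 0, and among the 32 single-set intervals only those of Tnr and Hapln1 in the 2 ng libraries of set A exclude it, without passing the adjusted test.

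Within each set of 6 libraries, with 1 library per mouse, the count of called members was 0 of 8 as well. The share of all genes called was 1.03% with 2 ng in set A, 1.08% with 2 ng in set B, 1.1% with 1 ng in set A and 1.08% with 1 ng in set B. An unadjusted p under 0.05 was seen for 2 members in the first of these sets, where 7.59% of genes were past it, and for 0 in the other 3, where 6.77%, 7.34% and 6.98% of genes were, and DESeq2 called 0 in all 4. The 2 members were Hapln1 and Tnr, singled out here after their values were seen.

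In the 2 ng libraries of set A, Hapln1 had 13.6, 13.7 and 15.3 CPM in WT and 26.8, 16.5 and 20.8 CPM in GFAP-IL6 mice, a log2 fold change of 0.57 (SE 0.21, adjusted p = 0.412). Tnr had 23.5, 25.7 and 25.3 CPM in WT and 38.5, 28.8 and 29.9 CPM in GFAP-IL6 mice in the same libraries, a log2 fold change of 0.36 (SE 0.17, adjusted p = 0.640). These 2 of 8 members were the ones whose groups did not overlap there, where 12.7% of genes tested had such groups. The other sets did not repeat the size of the Hapln1 difference, with log2 fold changes of 0.044 (2 ng, set B), -0.21 (1 ng, set A) and 0.22 (1 ng, set B). For Tnr the log2 fold change was 0.32 with 2 ng in set B, 0.067 with 1 ng in set A and -0.076 with 1 ng in set B.

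Bcan and Cspg5 were below 0 in all 4 sets, at -0.15 to -0.062 and -0.12 to -0.015 on the log2 scale, with adjusted p from 0.915 to 0.987. The other members changed sign between sets. A test of the difference itself, genotype by cDNA amount with the mouse as a block, chosen after seeing the data, called 0 of the 8 members and 0 of 12758 genes (edgeR, adjusted p = 0.9998 for each member), with 1 member, Tnr, at an unadjusted p under 0.05 (0.048), where 2.02% of genes were. Genotype by set called 0 of both as well, with 0 members at an unadjusted p under 0.05, where 5.61% of genes were.

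Ratios within a mouse compare members without the library total. Hapln1 stood at 2.71 to 3.90 times Vcan in WT and 3.81 to 5.83 times in GFAP-IL6 mice, and Bcan at 5.88 to 7.69 times Hapln2 in WT and 5.41 to 6.91 times in GFAP-IL6 mice. Hapln4 stood at 1.6 to 1.88 times Ncan in WT and 1.41 to 2.05 times in GFAP-IL6 mice. All 6 ratios computed overlapped between the genotypes, with exact permutation p of 0.2 to 0.9 and adjusted p of 0.4 to 0.9.

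The comparison of cDNA amounts asks what the tagmentation input does to the same RNA. Cspg5 was lower with 2 ng than with 1 ng in all 6 mice and in all 12 pairs of libraries of the same mouse and set. Its 12 libraries with 2 ng held 124 to 159 CPM and its 12 libraries with 1 ng 175 to 229 CPM, with no overlap. The means over 6 mice were 142 ± 8.21 and 199 ± 13.3 CPM (SD), a log2 fold change of -0.50 (SE 0.056, adjusted p = 1.61e-06, edgeR with genotype in the model). It was -0.47 in set A and -0.51 in set B as the mean log2 ratio over mice. Of the 8 members tested Cspg5 alone was called, where 12.3% of 13750 genes were.

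With the mouse as a block, which fits the design because both amounts come from the same mice, 4 of 8 members were called where 32.4% of genes were. Beside Cspg5 (-0.50, SE 0.028) these were Ncan, lower with 2 ng in 12 of 12 pairs of libraries (-0.15, SE 0.048, adjusted p = 0.00857), Hapln4, higher in 10 of 12 (0.14, SE 0.037, adjusted p = 0.000774), and Hapln1, higher in 8 of 12 (0.24, SE 0.095, adjusted p = 0.0374). In levels, Ncan had 52.7 ± 4.79 CPM with 2 ng and 57.7 ± 4.21 with 1 ng, Hapln4 had 100.8 ± 11.4 and 89.9 ± 7.19, and Hapln1 had 14.9 ± 2.59 and 12.7 ± 1.71 (SD, n = 6 mice). In single sets, without the block, the log2 fold change of Hapln1 was 0.40 in set A (adjusted p = 0.0998) and 0.0074 in set B (adjusted p = 0.989). Hapln4 was at 0.21 and 0.086 and Ncan at -0.10 and -0.18 in sets A and B, and neither was called in a single set. The exact paired permutation p was 0.03125, the smallest that 6 pairs can give, for Cspg5, Ncan, Hapln4 and Ptprz1, and 0.0625 after adjustment over the 8 members tested. Libraries are pooled before tagmentation in this method, so mice of 1 amount and set may share a reaction, and the spread between reactions is then not in these p-values.

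**Figure D3:**
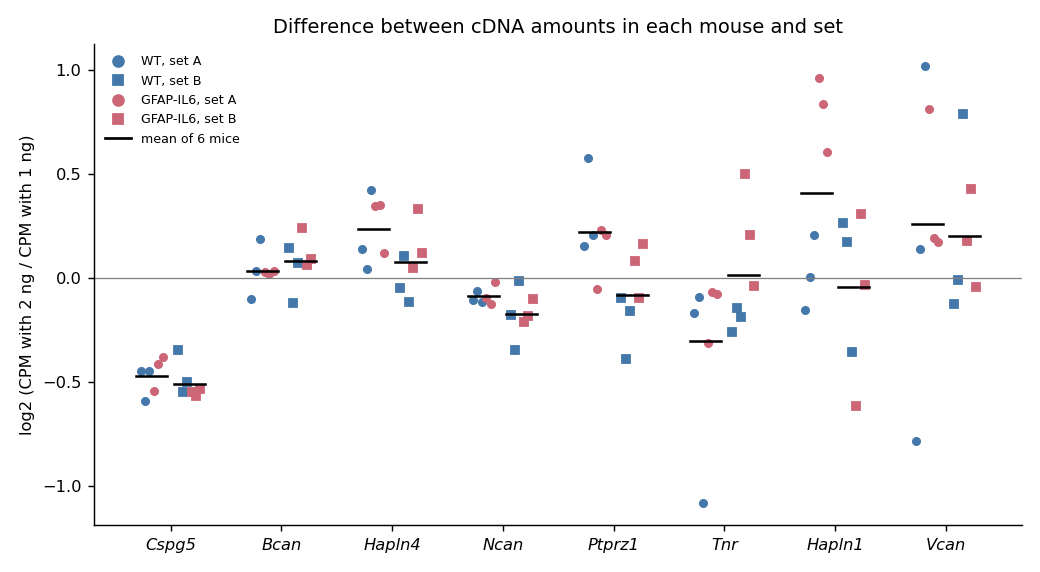
Log2 ratio of CPM with 2 ng to CPM with 1 ng for each mouse (points, WT blue, GFAP-IL6 red) in set A (circles) and set B (squares), with black bars at the mean of 6 mice. All 12 points of Cspg5 and all 12 of Ncan lie below 0, those of Cspg5 around -0.50. For Tnr 10 of the 12 lie below 0, while Hapln1 and Vcan scatter widely on both sides.

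Set A against set B gave 0 called members without the block, where 6.98% of 13934 genes were called, 2 of 8 members at an unadjusted p under 0.05, where 20.4% of genes were, and 0 called by DESeq2. With the mouse as a block Bcan alone was called, 1 of 8 where 23.1% of genes were, at a log2 fold change of -0.20 (SE 0.036, adjusted p = 1.35e-06). Bcan was lower in set A in 12 of 12 pairs of libraries, at 133 ± 17.3 CPM against 152 ± 21.5 CPM (SD, n = 6 mice). Hapln1 was higher in set A in 6 of 6 mice, at 15.3 ± 2.63 against 12.3 ± 1.51 CPM, with an adjusted p of 0.159 without the block and 0.051 with it. Among the 2 ng libraries alone its log2 fold change was 0.51 (adjusted p = 0.0207), where 20.4% of genes were called, and among the 1 ng libraries 0.094 (adjusted p = 0.935), where 0.718% were. The interaction of amount and set, also chosen after seeing the data, called 0 of 8 members where 11.4% of 12758 genes were called. It had 1 member, Ptprz1, at an unadjusted p under 0.05, where 22.2% of genes were, with Hapln1 at 0.40 (SE 0.20, adjusted p = 0.231) and Ptprz1 at 0.30 (SE 0.11, adjusted p = 0.0605).

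**Figure D4:**
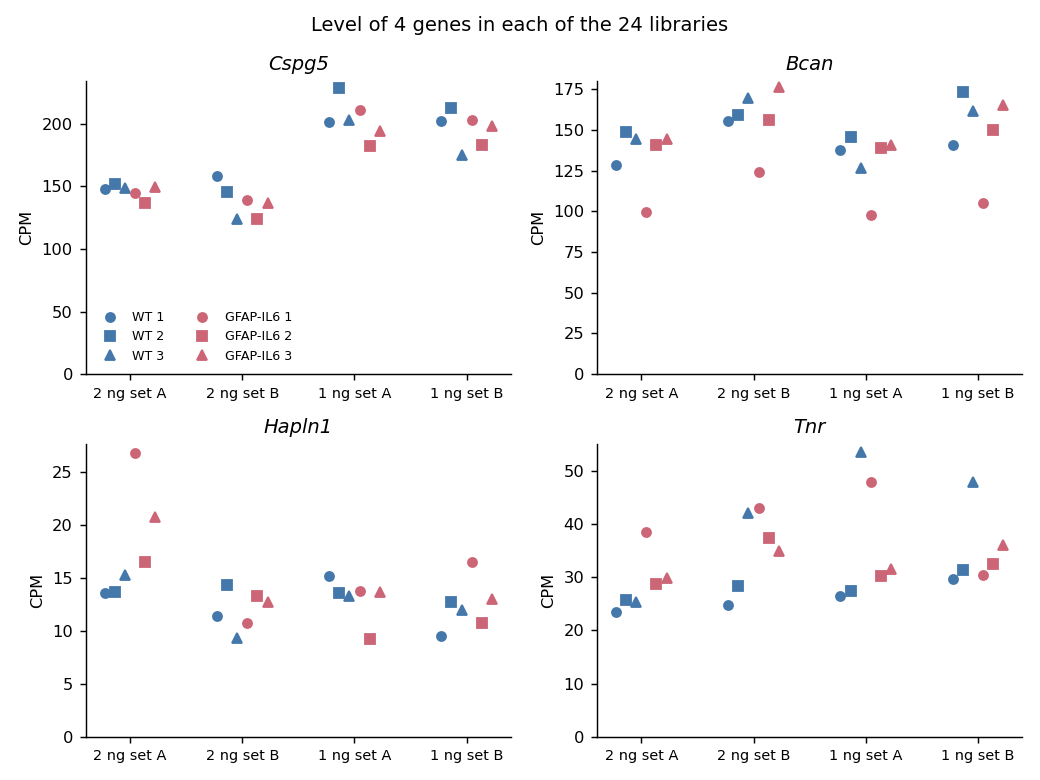
CPM of Cspg5, Bcan, Hapln1 and Tnr in each of the 24 libraries, grouped by cDNA amount and set, WT in blue and GFAP-IL6 in red, with 1 symbol per mouse number and axes from 0. Cspg5 falls into 2 levels by amount (124 to 159 and 175 to 229 CPM), GFAP-IL6 1 is lowest for Bcan in each set, the 3 GFAP-IL6 mice lead for Hapln1 in the 2 ng libraries of set A, and WT 3 is above the other WT mice for Tnr in 3 of the 4 sets.

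The spread among the 4 libraries of a mouse differed between members. For Cspg5 its median coefficient of variation was 20.3%, where counting alone gives 3.44% and mice of a genotype differed by 5.88% to 6.36% once their libraries were summed. For Hapln1 it was 22.7% against 13.0% from counting, at a median of 55 counts per library. For Tnr (11% against 8.83%), Ptprz1 (9.19% against 6.72%) and Vcan (23.6% against 26.0%) the median spread was about what counting gives. Single mice spread more for Tnr, with the libraries of WT 3 at 25.3 to 53.6 CPM and those of GFAP-IL6 1 at 30.4 to 47.9 CPM. Bcan (9.38% against 3.79%), Hapln4 (9.21% against 4.82%) and Ncan (11.6% against 6.34%) lay between.

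Around the members, 105 related matrix genes were followed in lists by function. Of the 94 that were tested, 1 rose in GFAP-IL6 mice and 0 fell, beside the same 1.8% of all genes called, and DESeq2 called 1 as well. At an unadjusted p under 0.05 there were 10 of the 94, beside 8.75% of all genes. The median log2 fold change of the 94 was -0.033. The gene that rose, Hexa, encodes a subunit of a lysosomal enzyme that removes sugars from the ends of glycosaminoglycans and gangliosides.

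Hexa rose from 61.4 ± 1.68 CPM in WT (60.2 to 63.3) to 82.8 ± 7.37 CPM in GFAP-IL6 mice (75.8 to 90.5), a log2 fold change of 0.43 (SE 0.091, adjusted p = 0.0195). Its groups did not overlap. Of the 6 microglial markers used here 5 rose, and their summed level was 212 to 235 CPM in WT and 321 to 418 CPM in GFAP-IL6 mice. The part of microglia in the Hexa difference was not tested. The call of Hexa was lost on leaving out WT 1, WT 2, GFAP-IL6 2 or GFAP-IL6 3 (adjusted p = 0.075 to 0.21), and it was made in 10 of the 14 settings run.

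The sugar polymers themselves depend on enzymes that were not called. Of 3 hyaluronan synthase genes only Has1 passed the filter (0.805 ± 0.693 CPM in WT, 0.675 ± 0.244 in GFAP-IL6), and the other 7 hyaluronan binding or degrading genes, such as the hyaluronidase Hyal2 (9.75 ± 0.486 and 10.4 ± 1.88 CPM, adjusted p = 0.938), did not pass the test. None of the 12 tested genes that build the chondroitin sulfate chain was called. Of their log2 fold changes 11 of 12 were below 0, with a median of -0.081 beside -0.0069 over all genes tested. These genes share the same 6 mice and are not independent. The list of 13 summed to 330 to 355 CPM in WT and 299 to 348 CPM in GFAP-IL6 mice, with overlap. The highest of them, B3gat3 and Chpf, had 110.2 ± 7.61 and 72.8 ± 4.14 CPM in WT and 107.7 ± 7.50 and 66.6 ± 13.5 CPM in GFAP-IL6 mice. The 7 tested chondroitin sulfotransferases, which set the sulfation pattern of nets, and the 5 further lysosomal genes of this pathway held 0 called genes each, with medians of -0.053 and -0.074.

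Proteases and receptors gave the same count. Of 13 tested matrix proteases, among them the lectican-cleaving Adamts4 (11.3 ± 2.45 CPM in WT, 9.94 ± 3.15 in GFAP-IL6), 0 were called, and 0 of 4 Timp inhibitors were. The 13 tested receptors and partners of the nets held 0 calls, with the most abundant of them, Cntn1 at 230.5 ± 45.1 and 209 ± 24.4 CPM, Nptxr at 182 ± 13.3 and 173 ± 6.19 CPM, and the receptor Ptprs at 162 ± 4.09 and 152 ± 9.96 CPM in WT and GFAP-IL6 mice. The 20 tested other proteoglycans and 10 tested other matrix glycoproteins held 0 calls. Of these, pleiotrophin (Ptn), a ligand of Ptprz1, had 750.1 ± 26.9 CPM in WT and 732 ± 9.85 CPM in GFAP-IL6 mice, with a log2 fold change of -0.035 (SE 0.080, adjusted p = 0.956). Nearest to a call in these lists were Fn1 (6.85 ± 0.805 CPM in WT, 10.7 ± 0.619 in GFAP-IL6) and Srgn (20.3 ± 1.62 and 29.1 ± 5.79 CPM). Their log2 fold changes in edgeR were 0.62 (SE 0.16, adjusted p = 0.060) and 0.53 (SE 0.14, adjusted p = 0.077). Both were called without the filter on low counts and with limma on all libraries. Without GFAP-IL6 1, Srgn was called too (edgeR, log2 fold change 0.67, adjusted p = 0.0061), and Fn1 was not.

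**Figure D5:**
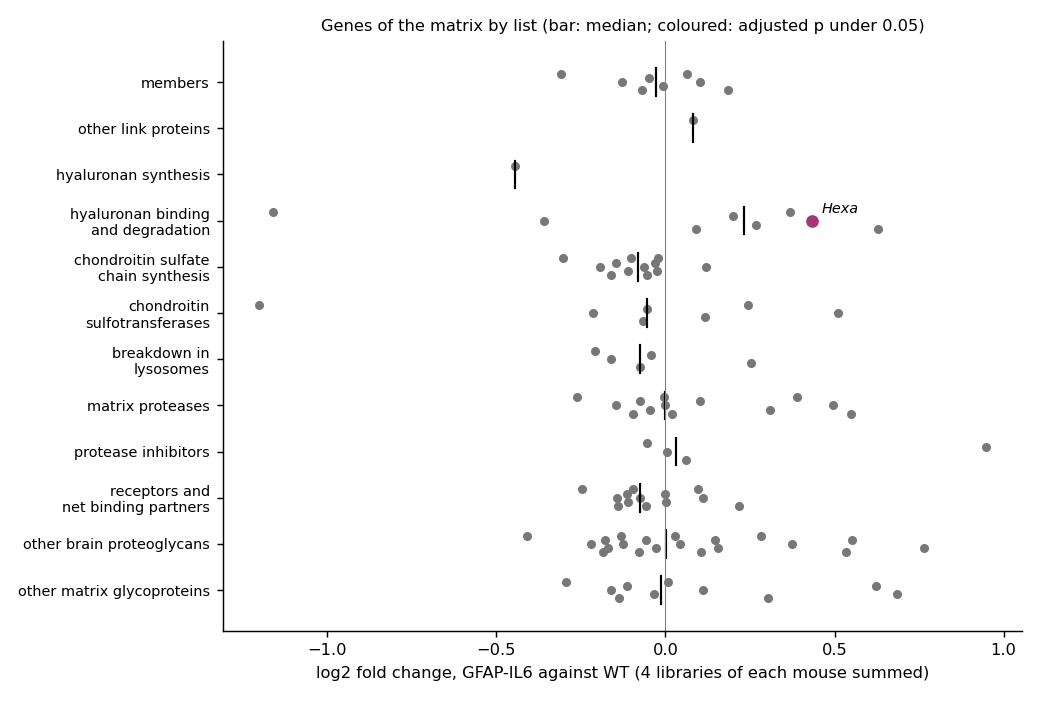
Log2 fold change of each tested gene, GFAP-IL6 against WT, for the 8 tested members (top) and 94 related genes by list, with black bars at list medians and called genes coloured. Hexa (0.43) is the 1 coloured point, and the members lie between -0.31 and 0.19.

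Cell types of the cortex were followed by the summed level of their markers. Summed parvalbumin interneuron markers, whose 7 genes were all present, were 647 to 703 CPM in WT and 627 to 702 CPM in GFAP-IL6 mice, with 0 of 7 called. The 7 astrocyte markers summed to 3103 to 3206 CPM in WT and 3402 to 3639 CPM in GFAP-IL6 mice, without overlap, and 0 of them were called. Of single genes tested, 14.4% had groups that did not overlap. The largest part of the sum was Aldoc, at 1672 ± 77.9 CPM in WT and 1886 ± 98.4 CPM in GFAP-IL6 mice. Of the 7 log2 fold changes 6 were above 0, and that of Aldh1l1 was -0.096. Endothelial markers were 96.0 to 104 CPM in WT and 121 to 198 CPM in GFAP-IL6 mice, with 2 of 6 called. What part these shifts had in the levels of the members was not tested.

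The genes closest in pattern to Hapln1, the member with the smallest adjusted p, were Erc1, Gins1 and Bach2, with a root mean square difference of 0.039 to 0.048 in centred log2(CPM + 1) over the 6 mice.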

How the data were processed

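By the study's methods, STAR 2.4 placed reads trimmed of polyA on mm10, and featureCounts assigned unique reads to GENCODE vM6 genes, although the submitters' processing notes name hg19 as the build. What the authors deposited are raw counts for each gene in each library, not normalized, and gene lengths. Positions and transcript ends come from GENCODE vM21 on mm10. Counts of the 4 libraries of a mouse were summed. Genotypes were compared over all genes with edgeR 4.0.16 (TMM, filterByExpr, quasi-likelihood test), for all libraries summed and per set, and amounts and sets over 6 mice with genotype in the model. A gene was called at a Benjamini-Hochberg adjusted p under 0.05. The members and lists were chosen with earlier results of these data known. Named were all members, Hapln2 and Hapln3, related genes called, up to 3 others a list by mean CPM, and the 3 genes nearest in pattern to the member with the smallest adjusted p. Fn1 and Srgn were added after their values were seen. Alternatives were DESeq2 1.42.0, limma 3.58.1, size factors, filters, thinning, blocks and leaving out mice. Only edgeR was tested on simulated data. R 4.3.3, Python 3.11.15 and scipy 1.17.1 were used. 1 gene of the related and marker lists is not reported here.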

Additional observations from a re-analysis of the deposited data

Results flagged for a closer look

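All 8 tested members were screened, between amounts and between sets, for 1 of the 6 mice lying far from the other 5. Such a mouse was found in 2 of these groups, and chance alone gives it in about 1 of 20 such groups. For Ptprz1 the log2 difference between 2 ng and 1 ng averaged 0.067 over 6 mice, with single mice from 0.012 to 0.20. For Tnr the log2 difference between set A and set B averaged -0.099, with single mice from -0.22 to 0.30, and 5 of 6 mice were lower in set A.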

How the results depend on the processing

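Between genotypes, 0 members were called in each of the 14 fits of the summed libraries, at an adjusted p under 0.1, and in every fit of a single set. On leaving out 1 mouse at a time, the log2 fold change ran from -0.24 (without GFAP-IL6 3) to 0.017 (without GFAP-IL6 1) for Bcan, from -0.085 (without GFAP-IL6 1) to 0.056 (without GFAP-IL6 2) for Ncan, from -0.14 (without GFAP-IL6 2) to 0.0024 (without WT 3) for Hapln4 and from -0.036 (without WT 1) to 0.33 (without WT 3) for Tnr. It ran from -0.54 (without GFAP-IL6 1) to -0.14 (without GFAP-IL6 3) for Vcan, from 0.089 (without GFAP-IL6 1) to 0.30 (without GFAP-IL6 2) for Hapln1, from 0.0085 (without WT 3) to 0.14 (without WT 1) for Ptprz1 and from -0.11 (without WT 3) to -0.023 (without GFAP-IL6 2) for Cspg5. Thinning to equal totals gave Vcan -0.66, Ptprz1 0.13, Ncan 0.058 and Tnr 0.047, and limma gave Ptprz1 0.0085 and Tnr 0.15. A block of same-numbered mice, whose numbers are only names (correlations of deviations across genes -0.061 to -0.037), called 0 members and 1 related gene. Related genes called were 5 with no filter on low counts, where 462 of 20629 genes were called, and 4 with limma on all libraries, where 528 of 12758 were. Leaving out a mouse gave 0 to 3. The 3 came without GFAP-IL6 1, where 321 of 14968 genes were called, and without GFAP-IL6 3 it was 0, where 146 of 14854 were. With the mouse as a block, members called went from 1 to 4 between amounts and from 0 to 1 between sets, where 2 ng alone also gave 1, beside 20.4% of all genes. The sign turned for Ptprz1 between amounts in set B alone (-0.077), and between sets for Ncan with 2 ng alone (0.026) and for Tnr (0.020) and Ptprz1 (-0.066) with 1 ng alone. The cause of these changes was not tested. Counts were lowest for Acan and Vcan, at 32 and 366 over all 24 libraries.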
